A study of Mus musculus with 4 samples.

Results

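Genes for neuronal RNA-binding proteins and splicing regulators were described in proliferating iMOP cells and in neurons derived from them. The members were taken by symbol, from a set proposed with earlier results of these data in view: the neuronal ELAVL genes Elavl2, Elavl3 and Elavl4, the RBFOX genes Rbfox1, Rbfox2 and Rbfox3, the NOVA genes Nova1 and Nova2, and the polypyrimidine tract-binding genes Ptbp1 and Ptbp2. All 10 were among the 49997 genes of the deposited tables, and 9 of the 10 passed the filter on low counts, the exception being Rbfox1. iMOP cells are immortalized multipotent otic progenitors, a mouse line from the inner ear that can be grown as dividing cells or turned into neurons. All 4 libraries came from this single line, labelled wild-type. Proliferating cultures (2 libraries) were kept in DMEM/F12 with B27, carbenicillin and 20 ng/ml bFGF. The neurons (2 libraries) were kept in Neurobasal with N21, L-glutamine and 1 µM K03861, which blocks the kinase CDK2, so the medium, the growth factor and the inhibitor cannot be told apart in their effects. The labels call the replicates biological and say nothing of separate cultures or days, so a p-value measures only the spread between these libraries.

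Splicing regulators decide which exons enter a mature mRNA, and each family here reads its own short RNA motif. PTBP proteins bind pyrimidine-rich stretches and mostly repress exons. PTBP1 is the form of dividing and non-neuronal cells, it pushes Ptbp2 transcripts toward a form that is degraded, and the microRNA miR-124 lowers PTBP1 when neurons form, after which PTBP2 takes over until neurons mature. RBFOX proteins bind GCAUG, NOVA proteins bind YCAY clusters, and neuronal ELAVL proteins, also called Hu proteins, bind U-rich and AU-rich stretches and both stabilize mRNAs and steer splicing.

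Both PTBP genes hold a 34-base exon whose skipping shifts the reading frame, the switch by which PTBP1 limits Ptbp2 and itself. It is shown because the balance of these genes rests on it and because the gene counts used here do not see it. Capitals mark the positions at which both exons carry the same base, 26 of 34 (76.5%), in the mm10 build as annotated by GENCODE M21, 5′ to 3′ on the gene's strand.
Ptbp1 exon 9 of 13, chr10:79862014-79862047, plus strand: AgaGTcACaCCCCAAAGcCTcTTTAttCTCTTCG
Ptbp2 exon 10 of 14, chr3:119724612-119724645, minus strand: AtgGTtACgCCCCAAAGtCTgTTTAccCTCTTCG
GENCODE lists 2 transcripts without the exon for each gene, all of the nonsense-mediated decay type. A gene count adds transcripts with and without the exon, so productive and degraded Ptbp2 mRNA were not separated.

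Total counts were 7446361 to 14484011 per library, of which the 18S ribosomal RNA row took 53.3% to 59.4% in the replicate 1 libraries and 75.0% to 76.1% in the replicate 2 libraries. Proliferating replicate 2 had the fewest counts outside that row, 2595578, and stood apart from the rest: its log2 CPM (counts scaled to the TMM-adjusted library size) correlated with that of proliferating replicate 1 at r = 0.825 across genes, while proliferating replicate 1 correlated with neuron replicate 1 at r = 0.918. Genes are not independent replicates, so these are descriptions. Within replicate 2 the difference between groups also followed base composition, and the values that move most with proliferating replicate 2 are given with and without it. Across all 12783 genes tested, edgeR's quasi-likelihood test called 0 genes at an adjusted p under 0.05 (0.0% in either direction). It put 438 (3.43%) under an unadjusted 0.05, 0.915% higher in neurons and 2.51% lower. DESeq2 called 60 genes, 0.0939% higher and 0.375% lower, with 477 (3.73%) under an unadjusted 0.05, and edgeR with the replicate number as a block called 3 (0.0235%), all lower. No member was called by either tool or under any alternative setting. Of all tested genes, 12.9% were higher in neurons without overlap of the groups and 14.5% were lower without overlap.

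**Figure D1:**
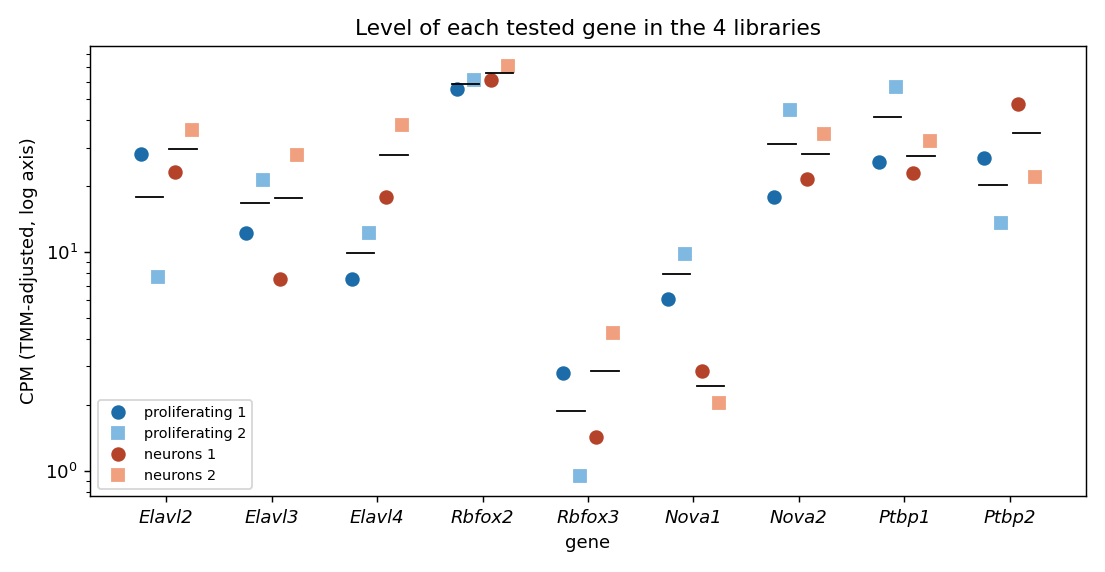
Level of the 9 tested members in CPM on a log axis, with 1 point per library for proliferating cells and neurons and a short line at each group mean. Elavl4 is higher in both neuron libraries than in either proliferating library and Nova1 is lower, while the other tested members overlap between the groups.

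Of the neuronal ELAVL genes, only Elavl4 had groups that do not overlap. Elavl4 (HuD, chr4:110203737-110351939), a Hu protein of postmitotic neurons that stabilizes mRNAs such as that of Gap43, had 7.56 and 12.2 CPM in the proliferating libraries and 17.7 and 38.0 CPM in the neurons. Both neuron libraries were above both proliferating libraries, and the gene was higher in both replicate pairs, by a log2 difference of 1.21 in pair 1 and 1.63 in pair 2. The fitted difference was 2.83-fold, a log2 value of 1.50 with an SE of 0.57 and a 95% interval of 0.18 to 2.82. Its unadjusted p was 0.0312 and its adjusted p 0.9998 in edgeR, so it did not pass the test over all genes. With GC content taken into account the log2 difference was 0.68 with an unadjusted p of 0.402 (edgeR). Without neuron replicate 2, and without that correction, the log2 difference was 0.85, the lowest with any library left out. That fit leaves a single neuron library, so no p-value is given. The mean went from 9.87 ± 3.27 to 27.9 ± 14.3 CPM (SD, n = 2 each). As bulk RNA, fewer cells of a type and less RNA per cell cannot be told apart here or for any other member.

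Elavl2 (HuB, chr4:91211533-91400108), the Hu protein that is also made outside neurons in the germ line, had 27.9 and 7.72 CPM in proliferating cells and 23.3 and 36.0 CPM in neurons. The groups overlapped, with proliferating replicate 2 alone at the low end. Its log2 difference was 0.73 (SE 0.66, 95% interval -0.81 to 2.27), and leaving out proliferating replicate 2 gave 0.10 while leaving out proliferating replicate 1 gave 1.90. Elavl3 (HuC, chr9:22015005-22052146), a widely used marker of young neurons, had 12.2 and 21.3 CPM in proliferating cells and 7.49 and 27.8 CPM in neurons. Neuron libraries held both its lowest and its highest value, and its log2 difference was 0.08 (SE 0.68, 95% interval -1.52 to 1.68). Elavl1, the ubiquitous family member outside the set, stayed at 58.3 and 87.2 CPM in proliferating cells and 69.1 and 66.4 CPM in neurons.

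A ratio of 2 genes within a library does not depend on library size. Elavl4 counts per Elavl3 count were 0.622 and 0.573 in proliferating cells and 2.37 and 1.37 in neurons. The groups did not overlap, and the mean ratio was 3.01-fold higher in neurons, with an exact two-sided permutation p of 0.333, the smallest that 2 libraries against 2 can give. After correction for GC content the groups of this ratio overlapped, at log2 values of -1.27 and 0.57 in proliferating cells and 0.52 and 0.39 in neurons, with an exact permutation p of 1.0. Against Elavl1 the Elavl4 ratio was 0.130 and 0.140 in proliferating cells and 0.257 and 0.573 in neurons, and its groups also overlapped after GC correction, with an exact permutation p of 0.667. An annotated gene overlaps Elavl3 exons on the same strand. As a share of the 3 neuronal ELAVL levels, each per kilobase of the longest transcript, Elavl4 made up 16.7% and 32.6% in proliferating cells and 37.8% and 39.3% in neurons, while Elavl2 ranged from 20.4% to 61.1% and Elavl3 from 13.2% to 47.0% over the 4 libraries.

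**Figure D2:**
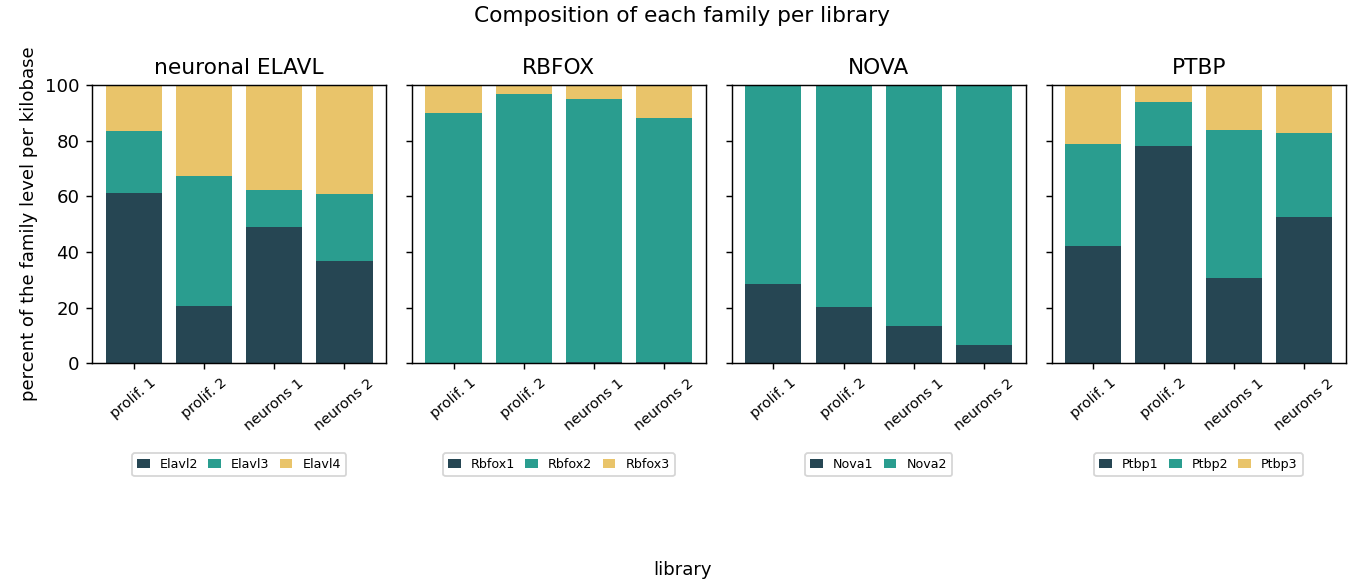
Percent of each family's summed level, in CPM per kilobase of the longest transcript, that each gene takes in each of the 4 libraries, with Ptbp3 included in the PTBP family. The Elavl4 part is larger in both neuron libraries, at 37.8% and 39.3%, and the Nova1 part is smaller, at 13.5% and 6.48%.

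The RBFOX family was carried by Rbfox2. Rbfox2 (chr15:77078990-77308434), the member with the widest expression outside neurons, had 55.7 and 61.0 CPM in proliferating cells and 60.9 and 70.5 CPM in neurons, and its log2 difference was 0.17 (SE 0.43, 95% interval -0.83 to 1.18). Its SE was the smallest among the 9 tested members, and its interval still includes a difference of more than 1 log2 unit. Rbfox3 (chr11:118489760-118911597) encodes NeuN, the nuclear antigen used to mark mature neurons. It had 34 and 7 counts in proliferating cells and 17 and 42 counts in neurons, or 2.79 and 0.948 against 1.43 and 4.28 CPM. These values overlapped and moved opposite ways in the pairs, by log2 differences of -0.88 and 1.97. Rbfox1 (chr16:5884793-7412480), a regulator of mature neurons and muscle, had 0 counts in both proliferating libraries and 1 count in each neuron library. All of these lie under a floor set here at 3 counts, 0.246 to 0.406 CPM depending on the library, so no fold is given. The exact two-sided 95% Poisson interval for a count of 0 reaches 3.69 counts. Rbfox2 made up 88.0% to 96.7% of the family's level per kilobase in the 4 libraries.

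Of the NOVA genes, Nova1 was lower in neurons without overlap and Nova2 overlapped between the groups. Nova1 (chr12:46697895-46819480), a regulator of exons in synaptic genes of hindbrain and spinal cord neurons, had 6.08 and 9.75 CPM in proliferating cells and 2.86 and 2.04 CPM in neurons. Both neuron libraries were below both proliferating libraries, and the log2 differences within the pairs were -1.04 and -2.15. The fitted level was 3.20-fold lower in neurons (log2 -1.68, SE 0.54, 95% interval -2.94 to -0.41), with an unadjusted p of 0.0162 and an adjusted p of 0.9998 in edgeR. Without proliferating replicate 2 the log2 difference was -1.29, the nearest to no difference with any library left out. That fit leaves a single proliferating library, so no p-value is given. The counts behind it were 74 and 72 against 34 and 20. With GC content taken into account the Nova1 log2 difference was -2.64, with an unadjusted p of 0.00918 and an adjusted p of 0.694 (edgeR). Nova2 (chr7:18925888-18965319), its cortical counterpart, had 17.7 and 44.7 CPM in proliferating cells and 21.5 and 34.5 CPM in neurons, with both neuron values inside the proliferating range. Its log2 difference was -0.16 (SE 0.58, 95% interval -1.51 to 1.19). Nova1 counts per Nova2 count did not overlap between the groups, at 0.343 and 0.218 in proliferating cells and 0.133 and 0.059 in neurons, again with an exact permutation p of 0.333. After GC correction the groups of this ratio did not overlap either, at log2 values of -2.17 and -0.71 against -3.70 and -4.15. An annotated gene overlaps Nova1 exons on the same strand, and another overlaps Nova2 on the opposite strand, and the use of strand in the counting is not given in the sources used here.

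Of the 9 tested members 2 had groups that do not overlap, 1 in each direction, and the same 2 had an unadjusted p under 0.05. Among all tested genes 27.4% had groups that do not overlap, so for overlap 2 of 9 is close to the background. An unadjusted p under 0.05 in edgeR was rarer, at 3.43% of all tested genes, and no test over the members was run. Both pairs put 3 members higher in neurons (Elavl4, Rbfox2 and Ptbp2, against 28.8% of all genes) and 2 lower (Nova1 and Ptbp1, against 25.5%), and 4 moved opposite ways (45.7%).

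**Figure D3:**
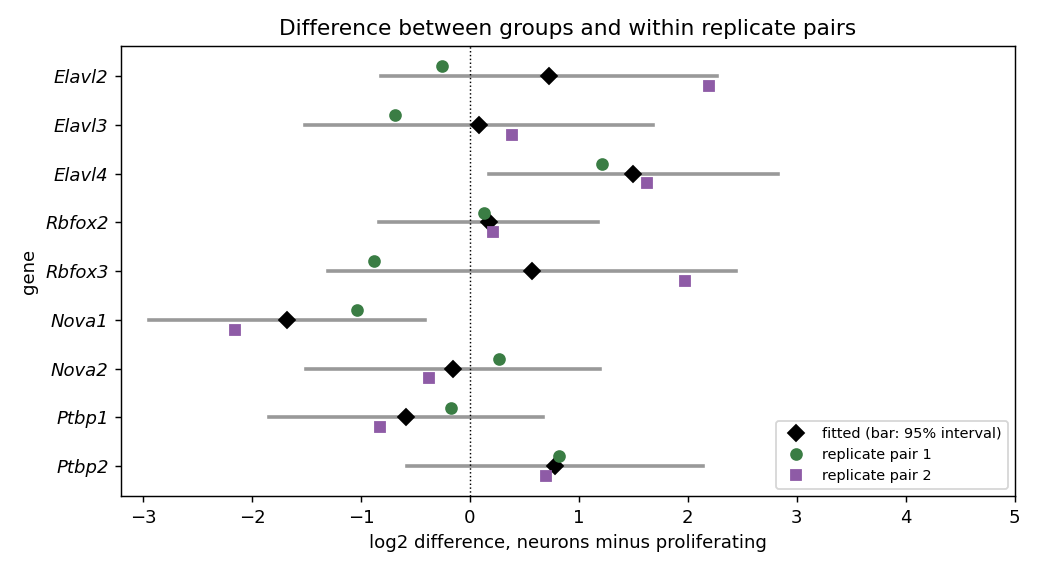
Log2 difference, neurons minus proliferating cells, for the 9 tested members, with the fitted value and its 95% interval as a diamond and bar and the difference within each replicate pair as a circle and a square. The intervals of Elavl4 and Nova1 leave out 0 before adjustment and without GC correction. With GC correction the unadjusted p is 0.402 for Elavl4 and 0.00918 for Nova1 (edgeR). The pair values of Elavl2 and Rbfox3 lie far apart.

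Sequence before the start sites is shown for these 2 genes because they alone had groups that do not overlap. Neurogenic bHLH factors bind E-boxes, so 3 E-box forms were searched on both strands in the 250 bases before each RefSeq start. The first form was CAGCTG. The other forms were CAGATG with its reverse complement CATCTG and CACCTG with its reverse complement CAGGTG. Capitals mark the matches (RefSeq, GRCm38.p6, 5′ to 3′ on the gene's strand). For Elavl4, RefSeq gives 4 starts, and 1 of the 2 windows with the most matches is printed, a choice made after the matches were seen.
Elavl4, chr4:110287528-110287777, minus strand: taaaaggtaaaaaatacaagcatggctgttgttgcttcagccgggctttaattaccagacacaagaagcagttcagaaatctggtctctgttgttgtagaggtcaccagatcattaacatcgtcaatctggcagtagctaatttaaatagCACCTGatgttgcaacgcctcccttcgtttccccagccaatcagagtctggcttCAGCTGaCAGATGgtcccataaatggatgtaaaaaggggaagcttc
Nova1, chr12:46818768-46819017, minus strand: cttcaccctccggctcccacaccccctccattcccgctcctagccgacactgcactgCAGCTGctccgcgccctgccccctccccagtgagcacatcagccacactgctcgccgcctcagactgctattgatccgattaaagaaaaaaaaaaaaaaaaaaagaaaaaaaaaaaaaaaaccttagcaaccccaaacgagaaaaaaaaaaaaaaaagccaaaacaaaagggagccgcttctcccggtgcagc
The Elavl4 window held 3 matches and the Nova1 window 1. Of the 32851 promoter windows, 38.1% held at least 1 of the 3 forms, and 8 of the 18 windows of the 9 matched members did. A match is a run of letters and not a bound site.

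The balance of Ptbp1 and Ptbp2 leaned toward Ptbp2 in neurons within each replicate pair, and the 2 replicates of a group differed more than the groups did. Ptbp1 (chr10:79854432-79864435), the repressor of neuronal exons, had 25.9 and 57.0 CPM in proliferating cells and 23.0 and 32.1 CPM in neurons. Its high value was proliferating replicate 2, and the groups overlapped. The log2 difference was -0.59 (SE 0.54, 95% interval -1.84 to 0.67, unadjusted p 0.308 and adjusted p 0.9998 in edgeR), and it was 0.11 without proliferating replicate 2. Ptbp2 (chr3:119718741-119784647), the neuronal paralogue, had 26.9 and 13.5 CPM in proliferating cells and 47.7 and 22.0 CPM in neurons. Neuron replicate 2 lay between the proliferating values. The log2 difference was 0.78 (SE 0.58, 95% interval -0.58 to 2.14, unadjusted p 0.218 and adjusted p 0.9998 in edgeR), 0.39 without proliferating replicate 2 and 0.09 without neuron replicate 1.

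Ptbp2 counts per Ptbp1 count were 1.04 in proliferating replicate 1 (328 against 315 counts) and 0.238 in proliferating replicate 2 (100 against 421). They were 2.08 in neuron replicate 1 (567 against 273) and 0.686 in neuron replicate 2 (216 against 315). Neuron replicate 2 was below proliferating replicate 1, so the groups overlapped. Counting error was small beside this spread: 95% Wilson intervals ran from 0.892 to 1.21, 0.191 to 0.295, 1.80 to 2.40 and 0.577 to 0.815 in the same order, and they cover counting error only. Neurons were above proliferating cells by 1.995-fold in pair 1 and 2.89-fold in pair 2, while replicate 1 was above replicate 2 by 4.38-fold in proliferating cells and 3.03-fold in neurons. The mean log2 ratio was -1.01 ± 1.51 in proliferating cells and 0.26 ± 1.13 in neurons (SD, n = 2 each), a difference of 1.26 with an exact two-sided permutation p of 0.667. Without proliferating replicate 2 the difference was 0.20, and without proliferating replicate 1 it was 2.33.

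**Figure D4:**
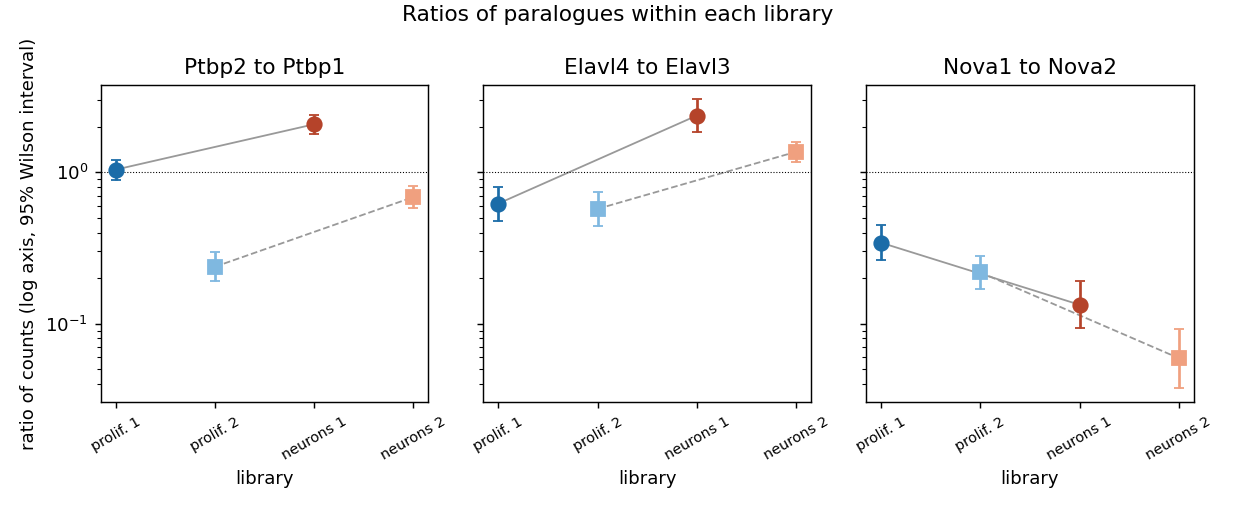
Ratio of counts of 2 related genes within each library on a log axis, with a 95% Wilson interval and lines joining the libraries of a replicate pair. The Ptbp2 to Ptbp1 ratio is higher in neurons in both pairs and overlaps between groups, while the Elavl4 to Elavl3 and Nova1 to Nova2 ratios do not overlap.

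Ptbp3, the third paralogue, had 28.3 and 9.75 CPM in proliferating cells and 26.2 and 22.6 CPM in neurons. Ptbp2 counts per Ptbp3 count were 0.951 and 1.39 in proliferating cells and 1.82 and 0.973 in neurons, a log2 difference of 0.21 with an exact permutation p of 0.667 and opposite signs in the pairs. Per kilobase of the longest transcript, Ptbp1 made up 42.0% and 78.2% of the 3 PTBP levels in proliferating cells and 30.6% and 52.6% in neurons. Longest transcripts of 13 paralogue pairs shared exact runs of at most 29 bases, shorter than the 150-base reads. Annotated genes on the opposite strand overlap Ptbp1 exons, and none overlaps Ptbp2.

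GC content moved with the replicate 2 values. Elavl4 transcripts have a GC content of 38.9%, Ptbp2 43.1% and Ptbp1 53.7%. In pair 2, the 387 tested genes within 1 percentage point of Elavl4 had a median log2 difference of 1.16 (interquartile range 0.44 to 1.76), a range that includes the 1.63 of Elavl4. In pair 1 the same genes had a median of 0.09 (-0.26 to 0.39), and the 1.21 of Elavl4 lay above that range. Ptbp2 in pair 2 was at 0.69 where the 1018 genes of like GC had a median of 0.60, and in pair 1 it was at 0.82 where they had -0.0047 and an upper quartile of 0.30. Ptbp1 in pair 2 was at -0.82, just below the interquartile range of -0.73 to 0.29 of its 1197 like genes. Nova1, at 38.5% GC, lay below the range of like genes in both pairs, at -1.04 against a lower quartile of -0.26 and at -2.15 against 0.52. With the trend in GC taken out of the fit, the log2 difference was 0.68 for Elavl4, -2.64 for Nova1, 0.54 for Ptbp2 and -0.36 for Ptbp1, and the difference in the log2 ratio of Ptbp2 to Ptbp1 was 0.80. The difference in the log2 ratio of Elavl4 to Elavl3, genes of unlike GC, was 0.81 after the same correction and -0.18 within pair 2.

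**Figure D5:**
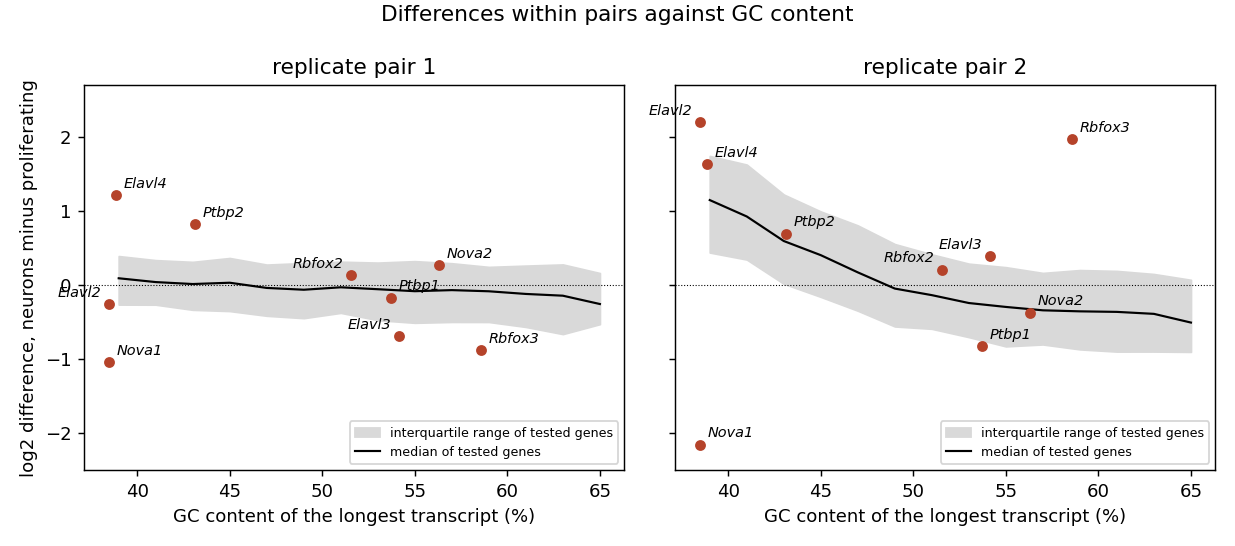
Log2 difference within each replicate pair against the GC content of the longest transcript, with the median and interquartile range of tested genes as a line and band and the members as points. The median line is nearly flat in pair 1 and falls with GC in pair 2, where Elavl4 at 1.63 and Ptbp2 at 0.69 lie inside it and Nova1 at -2.15 lies below it.

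Levels can be compared between genes only per length, here as CPM per kilobase of the longest GENCODE transcript. In proliferating cells Ptbp1 had the highest mean level, 13.1 ± 6.94, followed by Rbfox2 at 8.45 ± 0.547, Ptbp2 at 5.36 ± 2.51, Elavl2 at 4.25 ± 3.41, Nova2 at 3.73 ± 2.27, Elavl3 at 3.33 ± 1.28, Elavl4 at 2.38 ± 0.788, Nova1 at 1.11 ± 0.362, Rbfox3 at 0.594 ± 0.414 and Rbfox1 at 0. Neighbours in that order overlapped except Rbfox2 over Ptbp2, Elavl4 over Nova1 and Rbfox3 over Rbfox1. In neurons the order was Rbfox2 at 9.52 ± 0.987, Ptbp2 at 9.23 ± 4.81, Ptbp1 at 8.69 ± 2.04, Elavl2 at 7.07 ± 2.14, Elavl4 at 6.72 ± 3.46, Elavl3 at 3.52 ± 2.87, Nova2 at 3.34 ± 1.10, Rbfox3 at 0.907 ± 0.640, Nova1 at 0.342 ± 0.0812 and Rbfox1 at 0.030 (SD, n = 2 each). Only Nova2 over Rbfox3, Rbfox3 over Nova1 and Nova1 over Rbfox1 did not overlap there. Among the top 5 levels in neurons all neighbours overlapped across libraries, while Rbfox2 lay above Elavl2 without overlap. Within each neuron library, Ptbp1 was above Elavl2, at 7.25 against 5.56 and 10.1 against 8.59. Elavl4 was likewise above Elavl3, at 4.28 against 1.49 and 9.16 against 5.55. In proliferating cells Ptbp1 over Rbfox2, Ptbp2 over Elavl2 and Elavl3 over Elavl4 also kept their order within each library. The other overlapping neighbours changed order between the libraries of a group. With the union of exons as the length, Elavl4 takes rank 3 and Ptbp2 rank 4 in neurons. In proliferating cells Nova2 then takes rank 3, Elavl3 rank 4, Ptbp2 rank 5 and Elavl2 rank 6.

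Other regulators of the same layer were read from 5 lists, beside a median log2 difference of 0.02 over all tested genes. None of their genes had an unadjusted p under 0.05 in edgeR. Among 20 paralogues and PTBP partners, 14 were positive and 6 negative, with a median of 0.06. Matr3, a matrix protein that works with PTBP1 on repressed exons, had 82.2 and 19.6 CPM in proliferating cells and 97.9 and 85.3 CPM in neurons. Its log2 difference was 0.84 (SE 0.67), and 0.17 without proliferating replicate 2, its low library. Fubp1 and Nono were also higher without overlap, while Hnrnpk was lower. Among 27 other tissue-specific regulators 21 were tested, 15 positive and 6 negative, with a median of 0.19 that was 0.02 in pair 1 and 0.69 in pair 2. Celf2 was higher and Celf1 lower without overlap. Srrm4, the activator of neuronal microexons, had 0 counts in all 4 libraries, and Celf4, Celf6, Khdrbs2, Esrp1 and Esrp2 were also too low to test. Of 13 SR proteins, general activators of exons, 12 were tested, 6 in each direction, and Srsf5 and Srsf11 were lower without overlap. Srsf5 was at -0.52 with all libraries and -0.065 without proliferating replicate 2.

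The pathway above Ptbp1 runs through REST, which silences neuronal genes including those of miR-124. Of 9 genes of this axis 8 were tested, 4 in each direction. Rest had 366 and 149 counts in proliferating cells and 347 and 144 in neurons, a log2 difference of -0.20 (SE 0.53). Mir124a-1hg, a host gene of miR-124, had 21 and 25 counts in proliferating cells and 2 and 15 in neurons, so it was lower in both neuron libraries, and Mir124-2hg had 0 counts in all 4. A host transcript does not give the level of the mature microRNA. Of 13 transcripts known as targets of these proteins 11 were tested, 2 positive and 9 negative, with a median of -0.21 that was -0.0035 without proliferating replicate 2. Dlg4 encodes PSD-95, whose transcript PTBP1 and PTBP2 mark for decay by skipping an exon. Dlg4 had 12.0 and 24.1 CPM in proliferating cells and 8.33 and 15.4 CPM in neurons (146 and 178 against 99 and 151 counts). Its log2 difference was -0.60 (SE 0.57), and 0.00054 without proliferating replicate 2. Gabbr1 and Src, also known for exons that PTBP1 represses, were lower without overlap, and the log2 difference of Src went from -0.76 to -0.17 without proliferating replicate 2. Gap43, an ELAVL4 target, was too low to test.

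Markers of the labelled cell types moved only in part with the groups. The summed level of 10 neuron markers was 145 and 319 CPM in proliferating cells and 176 and 302 CPM in neurons, with only Map2 higher without overlap and Gap43 and Nefm near 0. Tubb3 had 19.1 and 194 CPM in proliferating cells and 28.8 and 105 CPM in neurons. Its log2 difference went from -0.67 to 1.82 without proliferating replicate 2. The median of the 8 tested neuron markers went from 0.06 to 0.50. The summed level of 7 otic neuron markers was 14.1 and 15.7 against 7.74 and 21.5 CPM. The 5 progenitor and cycling markers summed to 625 and 1227 CPM in proliferating cells and 700 and 434 CPM in neurons. Vim, an intermediate filament of progenitors, was lower without overlap, at 259 and 939 against 236 and 198 CPM (log2 -1.47, unadjusted p 0.048 and adjusted p 0.9998 in edgeR), and its log2 difference was -0.24 without proliferating replicate 2. Nes (-1.12) and Sox2 (-0.48) also had negative log2 differences, and the cycling genes Mki67 (0.66) and Top2a (0.88) positive ones, all with overlapping groups. Without proliferating replicate 2 these differences were -0.20 for Nes, -0.073 for Sox2, -0.16 for Mki67 and 0.08 for Top2a. The 6 glia markers summed to 67.4 and 61.7 CPM in proliferating cells and 20.8 and 1.73 CPM in neurons, with Gfap and Fabp7 lower without overlap. The part of these shifts in the levels of the splicing regulators was not tested. Muscle markers reached at most 5.89 CPM with Myh6, Tnnt2 and Actn2 at 0, and epithelium markers at most 1.09 CPM with Cdh1 at 0. Hair cell markers summed to at most 9.38 CPM, in neuron replicate 2. Atoh1 made up most of that sum, at 9.28 CPM there and 0.084 CPM in neuron replicate 1. In proliferating cells Atoh1 had 1.40 and 2.44 CPM.

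Genes of like pattern were found by the distance between profiles of log2 CPM over the 4 libraries, each centred on its mean, among 4452 tested genes with a mean of at least 10 CPM. Nearest to Elavl4 were Col4a1, a basement membrane collagen, at a distance of 0.27, Dcc, the netrin receptor of growing axons, at 0.53 and Vps72 at 0.57. Nearest to Ptbp1 were Pak1ip1 at 0.04, the ribosomal protein gene Rps15 at 0.04 and Lrrc47 at 0.07. Nearest to Ptbp2 were Iws1 at 0.14, Gm14681 at 0.16 and Exo1 at 0.17. With 4 libraries such distances are descriptions.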

How the data were processed

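Gene expression was measured in 4 libraries. For each library the authors deposited a table of raw counts and a table of RPKM. Per the labels' protocols, TRIzol RNA (500 ng) was depleted of ribosomal RNA and made into stranded libraries, and 8 pooled libraries were sequenced with paired 150-base reads. The submitters' processing notes name mm10, HISAT2, SAMtools, featureCounts, DESeq2 and deepTools 3.4.3. The annotation, the use of strand and the treatment of reads with several matches are not given in the sources used here. The deposited RPKM values equal the count over the column total and a length per gene that far exceeds any transcript for genes with many transcripts, so they were used only in alternatives.

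Counts were tested with edgeR 4.0.16 in R 4.3.3: TMM, filterByExpr (minimum count 10, total 15), glmQLFit and glmQLFTest group the only term, all 4 libraries, two-sided, Benjamini-Hochberg adjusted over 12783 genes with a threshold of 0.05. CPM uses TMM library sizes, and differences within a pair use a prior count of 2. An exact permutation of 2 libraries against 2 has 6 splits. The scripts were tested on simulated data. Titles of both replicate 2 libraries carry "set 2", so replicate numbers were taken to mark a shared set, whose nature is not stated; deviations of same-numbered libraries from their group means correlated at r = 0.33.

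The members, lists and named genes (all 10 members, listed genes, and the 3 genes nearest to Elavl4, Ptbp1 and Ptbp2) were chosen with earlier results of these data known. Alternatives were DESeq2 1.42.0, RLE or no normalization factors, other filters, 18S left out, log2(RPKM + 1) and log2(RPKM + 0.1) with limma 3.58.1, a GC correction, a replicate block and each library left out. Added after seeing the data were the GC-corrected, per-kilobase and blocked forms of the Ptbp2 to Ptbp1 ratio, the order by union of exons, and values of listed genes without proliferating replicate 2. GC content was known for 11597 of 12783 tested genes (90.7%).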

Additional observations from a re-analysis of the deposited data

How the results depend on the processing

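Members called numbered 0 under every alternative run. Genes called numbered 0 in the reported fit (edgeR, adjusted p), 60 in DESeq2, 163 without a filter on low counts, 2 with library size only, 2 with log2(RPKM + 0.1), 1 with log2(RPKM + 1), and 18 to 113 with each library left out. With the replicate block, whose pairing rests on the shared set in the titles, 3 genes were called, and 3 with the block and GC correction. With the block the log2 difference was 1.44 for Elavl4 (unadjusted p 0.00878, adjusted p 0.483 in edgeR) and -1.65 for Nova1. With the block and GC correction it was 0.84 for Elavl4 (unadjusted p 0.065, adjusted p 0.823 in edgeR) and -2.26 for Nova1. Over 15 alternatives each, Elavl2, Elavl4, Nova1 and Ptbp2 kept their sign. Elavl4 ranged down to 0.14 and Nova1 to -0.06 with log2(RPKM + 1), a pseudocount large beside their RPKM. The sign reversed for Elavl3 with library size only (-0.31), log2(RPKM + 0.1) (-0.33), log2(RPKM + 1) (-0.15) and the block (-0.15), for Rbfox2 (-0.12, -0.050 and -0.016 under the first 3 of these) and for Rbfox3 (-0.14, -0.015 and -0.0029 under the same 3). Nova2 reversed with GC correction (0.14) and with block and GC correction (0.19). Library size only moved the median of all genes from 0.02 to -0.27, so the reversals under that setting are relative to that shift. The median was -0.15 with log2(RPKM + 0.1) and -0.06 with log2(RPKM + 1). It was 0.05 with the block, 0.04 with GC correction and 0.06 with both. With each library left out, values ran from -1.16 to 0.69 for Elavl3, -0.41 to 1.53 for Rbfox3, -0.71 to 0.67 for Nova2, -1.09 to 0.11 for Ptbp1, 0.85 to 1.91 for Elavl4, -2.01 to -1.29 for Nova1 and 0.20 to 2.33 for the log2 ratio of Ptbp2 to Ptbp1. Depth limits Rbfox3 and Rbfox1, at 42 counts or fewer in each library. The neuron values of Nova1 also rest on few counts, 34 and 20.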
